A study of Drosophila melanogaster with 24 samples.

Results

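RNA-seq libraries of Gcn2 mutant flies that received a diet without methionine were compared with libraries of Gcn2 mutants on the complete diet. The 6 libraries of this comparison, of 24 in the series, were chosen by their labels: 3 Gcn2 -M libraries and 3 Gcn2 Yaa libraries. Yaa is a chemically defined diet with all amino acids, and -M is the same diet with methionine left out. Each library was made from polyA RNA of 25 females, mated once and kept on the diet for 3 days, of which heads and thoraces were taken. The flies had been collected as newly emerged adults and allowed to mate before they were sorted onto the diets. All 6 libraries carried the Gcn2 null allele, in which the open reading frame was replaced by a white marker gene, in the white Dahomey background (wDah). The mutant is thus 1 allele from 1 gene replacement, and the flies also carry a white gene that the wDah control flies lack. For a comparison between genotypes, 3 wDah -M and 3 wDah Yaa libraries were also used, and for single levels the 3 mutant libraries each from diets without arginine (-R) and without any amino acid (-All). All groups were described as biological replicates, but no label says which vial or cross a replicate came from.

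GCN2 is a protein kinase that is switched on by uncharged tRNA. It phosphorylates the translation factor eIF2alpha, which slows protein synthesis in general while some mRNAs are translated more, among them that of the transcription factor ATF4 (crc in flies). Genes of serine synthesis, the folate one-carbon pathway and asparagine synthesis are known targets of ATF4. Methionine is an essential amino acid that starts every protein and is also turned into S-adenosylmethionine (SAM), the donor of most methyl groups. The spent form, homocysteine, is methylated back to methionine or passed on to cysteine. The comparison asked which transcripts changed without dietary methionine in flies that lack this kinase.

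The targeted gene was examined first. On the scale of the table in which all 24 libraries were normalized together, Gcn2 (FBgn0019990, chromosome 3R, 31395660 to 31402013 in the BDGP6.54 annotation) averaged 132 ± 18.8 normalized counts in Gcn2 -M and 158 ± 27.3 in Gcn2 Yaa libraries, and 663 ± 25.0 in wDah -M and 651 ± 45.5 in wDah Yaa libraries (SD, n = 3 each). Every mutant library lay below every wDah library. An exon of PNPase shares 454 bases with the end of Gcn2, and whether counting used the strand was not stated, so reads of this overlap cannot be assigned to either gene. The gene white, present in the mutants as the marker, had 3242, 3353 and 3257 normalized counts in the Gcn2 -M libraries and 4139.8, 2801 and 4319 in the Gcn2 Yaa libraries, which overlapped. The labelled tissues were present. Summed normalized counts of 17 photoreceptor genes were 378860 to 429257 in Gcn2 -M and 335428 to 477674 in Gcn2 Yaa libraries, and those of 16 flight muscle genes were 458005 to 503206 in Gcn2 -M and 408408 to 511238 in Gcn2 Yaa libraries. Ovary transcripts were unevenly spread. The 16 germline genes summed to 4116 in Gcn2 -M replicate 2 against 1292 and 1320 in the other -M libraries, and to 19030.5 in Gcn2 Yaa replicate 2 against 1528 and 1584 in the other Yaa libraries. The oocyte gene osk had 19.0, 1113 and 0 normalized counts on -M and 29.5, 4939.9 and 31.9 on Yaa, and the vitelline membrane gene Vm26Aa had 0, 3.15 and 0 on -M and 0, 1263 and 0 on Yaa. Because the replicate 2 libraries stand apart in this way, the counts of several lists are also given without them.

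Of the 11155 features tested of 13306 listed, 951 (8.53%) were higher and 260 (2.33%) lower in Gcn2 -M than in Gcn2 Yaa libraries. These are features with an adjusted p under 0.05 in limma on log2(normalized count + 1), with Benjamini-Hochberg adjustment over all features tested and a two-sided test; a log2 change below is always Gcn2 -M minus Gcn2 Yaa on this scale, and SE is its standard error. All 1211 called features had non-overlapping groups. Among them 255 were higher and 49 lower by more than 2-fold, and the median size of the log2 change was 0.67 among the higher and 0.52 among the lower. At an unadjusted p under 0.05 there were 2642. None of the 16 germline and 15 eggshell genes tested was called, and none had an unadjusted p under 0.05. Of the libraries left out singly, Gcn2 Yaa replicate 2 moved the number of calls most. Without it 2492 features were called, 1533 higher and 959 lower, including 1210 of the 1211. Leaving out Gcn2 -M replicate 3 gave the lowest number, 620. Between these, the other 4 libraries left out gave 783 (Gcn2 Yaa replicate 1), 798 (Gcn2 Yaa replicate 3), 656 (Gcn2 -M replicate 1) and 670 (Gcn2 -M replicate 2). Leaving out both replicate 2 libraries gave 2148 of 10959 tested, 1347 higher and 801 lower. List counts without both replicate 2 libraries stand against these numbers. The balance of directions depended on scaling. When each library was scaled to the same total, the median log2 change of all features moved to -0.21, against -0.045 in the deposited normalization. Of 11182 features then tested, 646 were higher and 1072 lower. Small changes below are relative to a scale that can move by that amount. Exons of osk, Yp1, CG10097, apolpp, Sesn and tim overlap those of other genes by more than 500 bases, and reads there cannot be assigned. Overlaps of that size in Lsp2, Mcad, Pepck1, crc and CG42362 are given beside their values, and shorter ones touch further named genes.

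**Figure D1:**
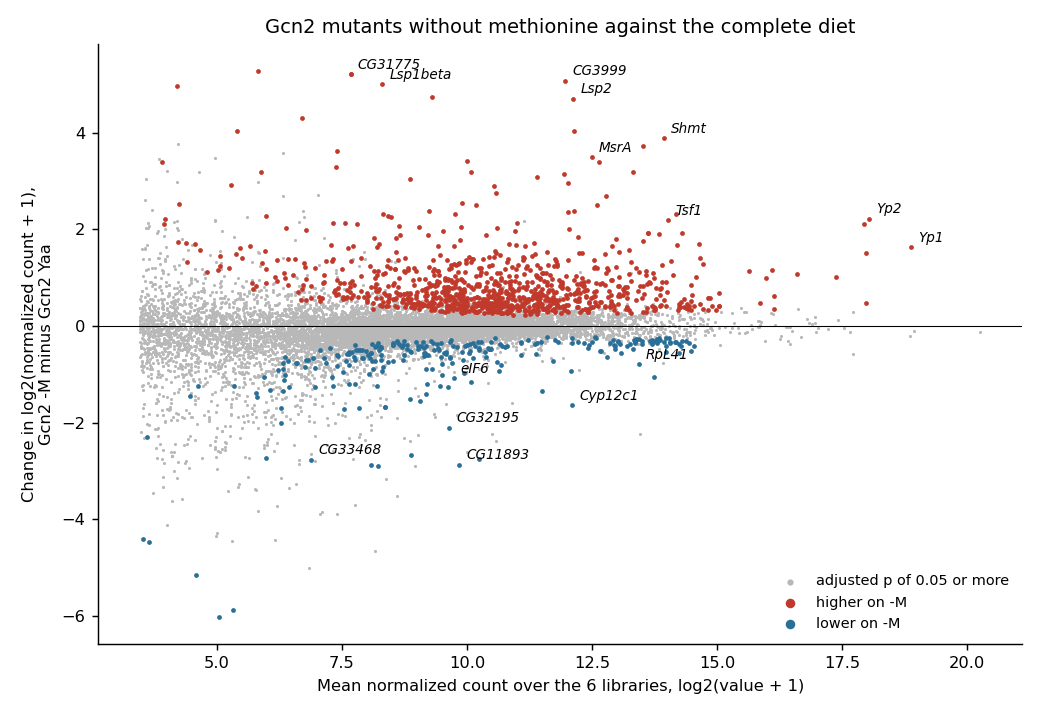
Change of each tested feature between Gcn2 -M and Gcn2 Yaa libraries (vertical axis, difference in log2(normalized count + 1)) against its mean level over the 6 libraries (horizontal axis, log2 scale). Red points mark the 951 features called higher and blue points the 260 called lower, and the labelled genes include CG3999, with a log2 change of 5.07, and CG11893, with one of -2.87.

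The response of the mutants was also set against that of wDah flies on the same diets. Of 10985 features tested in the 12 libraries, the change on -M was more positive in Gcn2 than in wDah flies for 463 (4.21%) and more negative for 298 (2.71%), by the interaction of genotype and diet in limma with an adjusted p under 0.05. With each library scaled to the same total these numbers were 375 and 472, and without Gcn2 Yaa replicate 2 they were 657 and 605. In wDah flies alone 970 features (8.83%) were higher and 361 (3.29%) lower on -M. Below, a difference between genotypes is this interaction term, the log2 change of Gcn2 mutants minus that of wDah flies.

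Several enzymes that take apart glycine or feed the folate one-carbon pool were higher, and 6 of them, grouped here with their values known, are described first. CG3999 (FBgn0037801, chromosome 3R, 10251518 to 10255268), which encodes the glycine dehydrogenase of the glycine cleavage system, had 8277, 8189 and 6896 normalized counts in the Gcn2 -M libraries, against 272, 227 and 197 in the Gcn2 Yaa libraries. The groups lay far apart, with a log2 change of 5.07 (SE 0.13, limma adjusted p = 1.73e-05). Its partner in that complex, the aminomethyltransferase gene CG6415, had 2317, 2088 and 2098 on -M and 797, 765 and 836 on Yaa, a log2 change of 1.44 (SE 0.072, adjusted p = 8.50e-05). Shmt (FBgn0029823, chromosome X), whose product moves a carbon between serine and glycine, had 31159.9, 30645 and 26476 on -M and 1964, 2159.9 and 1859 on Yaa. Its log2 change of 3.88 (SE 0.090, adjusted p = 1.73e-05) again left the groups far apart. Nmdmc and pug encode enzymes that interconvert folate-bound carbon. Nmdmc had 2584, 3248 and 2177 on -M and 389, 380.4 and 404 on Yaa (log2 change 2.75, SE 0.14, adjusted p = 8.94e-05). For pug the values were 13459, 11908 and 12146 on -M and 3572, 3838 and 3369 on Yaa (log2 change 1.80, SE 0.077, adjusted p = 4.38e-05). Sardh, the sarcosine dehydrogenase gene, was less abundant and also rose, with 645, 737 and 541 on -M and 183, 154 and 121 on Yaa (log2 change 2.07, SE 0.18, adjusted p = 6.76e-04).

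These genes split by genotype. In the table normalized over all libraries CG3999 averaged 7198 ± 703 in Gcn2 -M and 215 ± 34.9 in Gcn2 Yaa libraries, and 1689.8 ± 289 in wDah -M and 192 ± 6.37 in wDah Yaa libraries (SD, n = 3 each), a difference between genotypes of 1.95 (SE 0.19, adjusted p = 1.15e-04). The increase was also larger in the mutants for Shmt, by 1.80 (SE 0.12, adjusted p = 1.38e-05), for pug, by 1.08 (SE 0.093, adjusted p = 4.72e-05), for Sardh, by 1.14 (SE 0.24, adjusted p = 0.0139), and for CG6415, by 0.48 (SE 0.094, adjusted p = 0.0103). For Nmdmc the difference was -0.21 (SE 0.17, adjusted p = 0.514), which did not pass the threshold. Genes of the glycine and folate group thus did not all differ between genotypes in the same way.

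Of the 15 genes of the methionine and SAM cycle, 6 were higher and none lower in the mutants on -M. Among all features 8.53% were higher and 2.33% lower. In wDah flies 9 of the 15 were higher and none lower. The median log2 change in the mutants was 0.29 (-0.045 over all features). The largest increase was in CG10621, which encodes a predicted homocysteine methyltransferase. Its normalized counts were 5698, 4315 and 4544 on -M and 502, 583 and 627 on Yaa (log2 change 3.08, SE 0.13, adjusted p = 4.38e-05). The neighbouring gene CG10623, predicted to encode the same activity, had 1041, 1029 and 939.7 on -M and 1009.8, 917 and 1029 on Yaa and did not pass the threshold (log2 change 0.026, SE 0.079). Besides pug and Sardh, described above, the called members were Mtap, SamDC and CG11334, which act in polyamine synthesis and in the salvage of its by-product back to methionine. Their log2 changes were 0.49 for Mtap (SE 0.092), 0.44 for SamDC (SE 0.073) and 0.37 for CG11334 (SE 0.087), with adjusted p of 0.018, 0.0107 and 0.0437. None of these 3 calls held when each library was scaled to the same total (adjusted p = 0.0919, 0.0741 and 0.224). Without both replicate 2 libraries 8 genes of the list were higher and 1 lower. With the replicate number as a block 5 genes of the list were higher and Cbs was lower, since CG11334 missed the threshold (adjusted p = 0.071). Single libraries mattered as well. SamDC missed the threshold without Gcn2 -M replicate 2 or replicate 3 (adjusted p = 0.0612 and 0.0515). Mtap missed it without Gcn2 -M replicate 1 or 2 (0.0834 and 0.0842) and without Gcn2 Yaa replicate 1 or 3 (0.071 and 0.0684). CG11334 missed it without any 1 of the libraries other than Gcn2 Yaa replicate 2 (adjusted p from 0.119 to 0.164).

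Sam-S, Ahcy, Cbs and Gnmt did not pass the threshold in the main fit, whereas Sam-S, Ahcy and Cbs did so in some alternatives. Sam-S, the SAM synthetase gene, had 8809, 9009 and 8594 normalized counts on -M and 7383, 8455 and 7395 on Yaa (log2 change 0.19, SE 0.071, adjusted p = 0.168), but passed without both replicate 2 libraries (adjusted p = 0.0253). Ahcy, whose product splits S-adenosylhomocysteine, had 2555, 2621 and 2239 on -M and 1492, 3005 and 1548 on Yaa. The Yaa replicate 2 library was the highest of all 6, and without it the log2 change of Ahcy was 0.70 (adjusted p = 7.21e-04), against 0.37 with it (adjusted p = 0.454). Cbs, which sends homocysteine towards cysteine, had 479, 523 and 435 on -M and 675, 968 and 615 on Yaa. The groups did not overlap, and the log2 change of -0.63 (SE 0.18) had an adjusted p of 0.0765 alone and of 0.0324 with the replicate number as a block. Gnmt, whose product uses SAM to methylate glycine, stood out against wDah flies. In the mutants it had 39.1, 20.9 and 24.1 on -M and 30.4, 38.2 and 32.8 on Yaa (log2 change -0.30, SE 0.31, adjusted p = 0.599), whereas in wDah flies it averaged 451 ± 65.2 on -M and 57.6 ± 2.02 on Yaa (log2 change 2.94, SE 0.21). The difference between genotypes was -3.25 (SE 0.30, adjusted p = 6.90e-05). On the diets without arginine and without any amino acid the mutants held 518 ± 264 and 895 ± 239 normalized counts of Gnmt (SD, n = 3 each), in both cases above the level on -M. The methionine sulfoxide reductase gene MsrA (FBgn0000565, chromosome 3L, 15511052 to 15513202), whose product restores oxidised methionine in proteins, moved the other way. It had 9837, 11046 and 10864 normalized counts on -M and 957, 804 and 1081 on Yaa in the mutants (log2 change 3.49, SE 0.11, adjusted p = 2.24e-05), and averaged 1054 ± 22.2 on -M and 866 ± 35.7 on Yaa in wDah flies. Its difference between genotypes, 3.20 (SE 0.13, adjusted p = 4.23e-07), had the smallest adjusted p of all features tested.

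**Figure D2:**
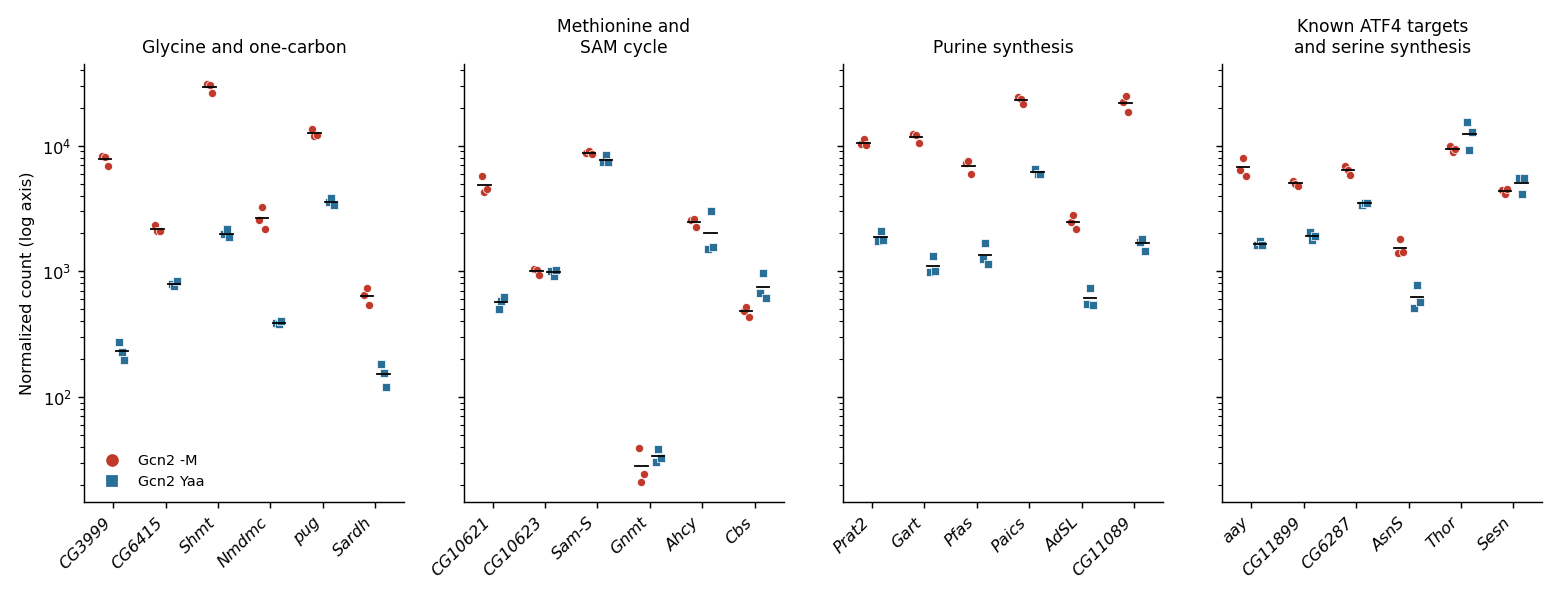
Normalized counts (log axis) of 24 genes of amino acid and purine metabolism in each Gcn2 -M library (red circles, left) and each Gcn2 Yaa library (blue squares, right), with black bars at the means of 3. CG3999, Shmt and CG11089 are separated by an order of magnitude, whereas Sam-S, CG10623, Gnmt and Sesn overlap or lie close.

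Known targets of ATF4 were partly higher in the mutants. Of the 17 genes in this list 6 were higher and none lower, against 8.53% and 2.33% of all features. In wDah flies 9 of the 17 were higher and none lower, with a median log2 change of 0.42. The median in the mutants was 0.049 and became -0.12 under scaling to the same total. Without both replicate 2 libraries 6 were higher and 2 lower. All 6 called with all libraries were metabolic enzymes: Shmt and Nmdmc, the 3 genes of serine synthesis, and asparagine synthetase. In the serine pathway the first gene, CG6287, had 6935, 6401 and 5892 normalized counts on -M and 3399, 3525 and 3489 on Yaa (log2 change 0.88, SE 0.072, adjusted p = 4.97e-04). The second, CG11899, had 5279.8, 4985 and 4746 on -M and 2050.1, 1778 and 1926 on Yaa (log2 change 1.38, SE 0.076, adjusted p = 9.95e-05). The last, aay, which encodes phosphoserine phosphatase, had 6351, 8049 and 5749.6 on -M and 1612, 1741 and 1606 on Yaa (log2 change 2.01, SE 0.13, adjusted p = 1.68e-04). In the order of the reactions the log2 changes were thus 0.88, 1.38 and 2.01, and the differences among the 3 genes were not tested. AsnS had 1395, 1805 and 1419.6 on -M and 513, 777 and 569 on Yaa (log2 change 1.33, SE 0.18, adjusted p = 0.00448), but averaged 5303 ± 352 on -M and 780.4 ± 29.3 on Yaa in wDah flies, which gave a difference between genotypes of -1.44 (SE 0.20, adjusted p = 0.00104). For aay, CG11899 and CG6287 the differences between genotypes were -0.47, -0.011 and 0.28, and none passed the threshold (adjusted p = 0.138, 0.957 and 0.0562).

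The regulators of this list did not pass the threshold in the mutants. The ATF4 gene crc had 22675, 22620.3 and 22154 normalized counts on -M and 23253, 20494 and 23998 on Yaa, with a log2 change of -0.0031 (SE 0.074). One of its exons overlaps CG46314, so its values may include that gene. The other eIF2alpha kinase, PEK, had 1414, 1336 and 1392 on -M and 1296, 1596 and 1273 on Yaa, with overlapping groups. Thor, which encodes the translation repressor 4E-BP, had 9993, 8826 and 9416 on -M and 15335, 9299.6 and 12765 on Yaa (log2 change -0.38, SE 0.17, adjusted p = 0.255). Without Gcn2 Yaa replicate 2, the lowest of the Yaa values, Thor passed with a log2 change of -0.57 (adjusted p = 0.0043). In wDah flies it averaged 18845 ± 653 on -M and 11941 ± 884 on Yaa, and the difference between genotypes was -1.04 (SE 0.20, adjusted p = 0.00851). For scyl, an inhibitor of TOR, the difference was -0.39 (SE 0.066, adjusted p = 0.00406). Xrp1, trbl, chrb, Irbp18, PPP1R15, Ero1L and Sesn had log2 changes between -0.20 and 0.28 and none was called with all libraries, although Sesn was lower without Gcn2 Yaa replicate 2 (adjusted p = 0.00512).

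Genes of purine synthesis rose together along most of the route to IMP, the first complete purine. The ring is built with carbon from folate and glycine. Of the 16 purine and pyrimidine genes tested 7 were higher and none lower, against 8.53% and 2.33% of all features. In wDah flies 8 of the 16 were higher and none lower. The median log2 change in the mutants was 0.38. CG11089, whose product completes the ring, had 22439.6, 24786 and 18566 normalized counts on -M and 1721, 1818 and 1457 on Yaa (log2 change 3.71, SE 0.13, adjusted p = 2.72e-05). Gart, which encodes 3 earlier activities, had 12276, 12176 and 10486 on -M and 993, 1323 and 1006 on Yaa (log2 change 3.40, SE 0.13, adjusted p = 3.34e-05). The first committed step is encoded by Prat2 and Prat, and only Prat2 rose, with 10375, 11225 and 10104 on -M and 1755, 2105 and 1760.5 on Yaa (log2 change 2.50, SE 0.090, adjusted p = 2.83e-05). Prat had 139, 154 and 172 on -M and 184, 460.3 and 152 on Yaa and did not pass the threshold (log2 change -0.60, SE 0.40, adjusted p = 0.418); the difference between both genes was not tested. Pfas, Paics and AdSL, which encode further steps of the route, had log2 changes of 2.37, 1.91 and 2.03. The branch enzymes beyond IMP did not follow. Log2 changes were 0.12 for AdSS, -0.17 for ras and 0.056 for bur, none of which was called. The seventh called gene, su(r), belongs to pyrimidine breakdown rather than synthesis and had a log2 change of 1.32 (SE 0.063, adjusted p = 6.61e-05). Increases exceeded those of wDah flies for CG11089, by 1.10 (SE 0.15, adjusted p = 9.17e-04), for Gart, by 1.25 (SE 0.16, adjusted p = 5.22e-04), for Prat2, by 0.64 (SE 0.14, adjusted p = 0.0202), and for AdSL, by 0.94 (SE 0.18, adjusted p = 0.00902), but not beyond the threshold for Pfas (0.65, adjusted p = 0.0742) or Paics (0.26, adjusted p = 0.119).

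Enzymes that break down amino acids were higher for 19 of 27 tested genes and lower for none, against 8.53% and 2.33% of all features. In wDah flies 18 of the 27 were higher and none lower, with a median log2 change of 0.56. The median in the mutants was 0.85. The genes called in the mutants covered several amino acids. Besides CG3999, arg, the arginase gene, had 586, 587 and 422 normalized counts on -M and 96.8, 113 and 104 on Yaa (log2 change 2.32, SE 0.16, adjusted p = 2.35e-04), and Oat, which handles the ornithine that arginase makes, had a log2 change of 1.65 (SE 0.13, adjusted p = 3.88e-04). Hn and Hpd, which act in phenylalanine and tyrosine breakdown, had log2 changes of 1.66 and 0.95, and v, the tryptophan oxygenase gene, one of 1.38. The transaminase genes Got2 and Got1 had 1.53 and 0.86. The list also holds ry, whose product, xanthine dehydrogenase, degrades purines. Its counts were 3296, 3324 and 2853 on -M and 831, 787 and 797 on Yaa (log2 change 1.97, SE 0.079, adjusted p = 3.35e-05). In 13 of 27 genes the change was more positive in the mutants than in wDah flies, against 4.21% of all features. In hgo, the homogentisate dioxygenase gene, it was more negative, with a difference of -0.73 (SE 0.18, adjusted p = 0.0326). For arg the wDah averages were 105 ± 10.7 on -M and 84.5 ± 8.02 on Yaa, and the difference was 2.01 (SE 0.20, adjusted p = 1.23e-04).

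Blood and yolk proteins made by the fat body, the insect organ of storage and secretion, were strongly higher. Lsp1beta and Lsp2 encode larval serum proteins, which larvae store as an amino acid reserve. Lsp2 (FBgn0002565, chromosome 3L) had 9401, 8360.0 and 7995 normalized counts on -M and 211, 530.3 and 314 on Yaa (log2 change 4.70, SE 0.31, adjusted p = 1.99e-04). Lsp1beta had 652, 810.4 and 371 on -M and 15.4, 18.1 and 18.1 on Yaa (log2 change 5.00, SE 0.29, adjusted p = 1.20e-04). An antisense gene covers 2096 bases of Lsp2 exons, and without stated use of strand its reads cannot be told apart from those of Lsp2. The third tested member, Lsp1gamma, had 17.9, 23.0 and 22.9 on -M and 10.1, 9.55 and 16.8 on Yaa and was not called (adjusted p = 0.265), and Lsp1alpha, Fbp1 and Fbp2 were below the minimum level for testing. In wDah flies Lsp2 and Lsp1beta had log2 changes of 5.18 and 5.60, and differences between genotypes were -0.48 (SE 0.55) and -0.61 (SE 0.42), with adjusted p of 0.642 and 0.437.

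The 3 yolk protein genes behaved otherwise. Yp1 (FBgn0004045), the most abundant, had 788429, 716918 and 680029 normalized counts on -M and 230801, 239360.4 and 231638 on Yaa (log2 change 1.64, SE 0.091, adjusted p = 9.95e-05). For Yp2 the values were 479125, 442472 and 404839.6 on -M and 96087, 96478 and 92398 on Yaa (log2 change 2.22, SE 0.087, adjusted p = 3.34e-05). For Yp3 they were 434043, 409406 and 385645 on -M and 90546, 99137 and 95967 on Yaa (log2 change 2.10, SE 0.082, adjusted p = 3.34e-05). The fat body and the ovarian follicle cells both make yolk proteins. Their sum was 1701597, 1568795 and 1470513 normalized counts in Gcn2 -M replicates 1 to 3, against 417433, 434976 and 420003 in Gcn2 Yaa replicates, whereas the eggshell list summed to 167, 146 and 232 on -M and to 98.2, 6431 and 82.9 on Yaa. The increase was 2.02 to 2.19 in each -M library taken alone (median of the 3 genes on the log2 scale, against the mean of the Yaa libraries). In bulk RNA, more cells of a type and more RNA per cell cannot be told apart. The increase was larger than in wDah flies, where Yp1, Yp2 and Yp3 had log2 changes of 0.35, 0.64 and 0.80. Differences between genotypes were 1.28 (SE 0.13, adjusted p = 1.58e-04), 1.57 (SE 0.15, adjusted p = 1.07e-04) and 1.29 (SE 0.13, adjusted p = 1.23e-04). Other secreted carriers of the fat body were also higher. Tsf1, the transferrin gene, had 26478, 27467 and 28174 on -M and 5878, 6026 and 6151 on Yaa (log2 change 2.18, SE 0.054, adjusted p = 1.73e-05). The lipoprotein gene apolpp had 364818, 410833 and 365048 on -M and 140342, 123174 and 136244 on Yaa (log2 change 1.51, SE 0.092, adjusted p = 1.51e-04). Of 8 genes in this list 6 were called, all higher, against 8.53% of all features. The others called included fat-spondin (1.01), and Mtp (0.85), whose product loads lipid onto lipoproteins. In 4 of the 8 (4.21% of all features) the change was more positive than in wDah flies, most for Tsf1, by 1.62 (SE 0.073, adjusted p = 8.02e-07). The gene fit, a secreted fat body signal of protein feeding, was chosen after its values were seen. It had 12859, 12091 and 11309.7 on -M and 2246, 1596 and 1863 on Yaa (log2 change 2.68, SE 0.13, adjusted p = 6.46e-05).

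Many genes of fatty acid synthesis and of fatty acid breakdown were higher. The counts of lists in this paragraph stand against 8.53% higher and 2.33% lower among all features. Of 19 genes of fatty acid and triglyceride synthesis 8 were higher and 2 lower (10 higher and 3 lower without both replicate 2 libraries). AcCoAS, which makes acetyl-CoA, had 29717, 28554 and 27769.5 normalized counts on -M and 8569.6, 8564 and 9949 on Yaa (log2 change 1.67, SE 0.077, adjusted p = 6.06e-05), and ACC, the rate-limiting enzyme of the pathway, had 22495, 20778 and 21715 on -M and 8965, 8878 and 9211 on Yaa (log2 change 1.26, SE 0.056, adjusted p = 5.34e-05). FASN1, the main fatty acid synthase gene, had a log2 change of 1.15 (SE 0.089, adjusted p = 4.09e-04), and mdy, which completes triglycerides, one of 1.00 (SE 0.084, adjusted p = 5.65e-04). The lower members were sug, a sugar-responsive transcription factor, with 424, 417 and 408 on -M and 979, 828 and 1163 on Yaa (log2 change -1.23, SE 0.13, adjusted p = 0.00137), and FASN3, described with the hydrocarbon genes below. Among 20 genes of beta-oxidation 12 were higher and none lower, with a median log2 change of 0.40. Without both replicate 2 libraries 18 were higher. After scaling to the same total 7 were higher and the median was 0.23. The 2 largest changes belonged to acyl-CoA dehydrogenases predicted to act in amino acid breakdown: CG9547, with 2022, 2062 and 1770.4 on -M and 199, 278 and 177 on Yaa (log2 change 3.18, SE 0.17, adjusted p = 9.90e-05), and CG3902, with 14562, 14853 and 14131 on -M and 4988, 4628 and 5107 on Yaa (log2 change 1.57, SE 0.060, adjusted p = 3.34e-05). Mcad, specific to medium chain fatty acids, had a log2 change of 1.01, but 996 bases of its exons overlap CG7457. For whd, which lets fatty acids into mitochondria, and its partner CPT2 the changes were 0.59 and 0.56. Of 11 lipase and lipid droplet genes 2 were higher, against 8.53% of all features. Lip2 rose, with 363, 268 and 277 on -M and 30.8, 27.0 and 31.8 on Yaa (log2 change 3.29, SE 0.17, adjusted p = 8.94e-05), whereas bmm, the main fat droplet lipase, was not called (log2 change 0.31, SE 0.12, adjusted p = 0.185).

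Among the largest decreases were those in genes of very long chain fatty acid and cuticular hydrocarbon synthesis, which coat the fly and are made in oenocytes. Of 20 genes tested 5 were lower and none higher, against 2.33% and 8.53% of all features, and the median log2 change was -2.19. CG16904 had 35.8, 184 and 34.3 normalized counts on -M and 343, 856 and 329 on Yaa (log2 change -2.89, SE 0.71, adjusted p = 0.0481). The elongase gene eloF had 41.4, 157 and 30.5 on -M and 348, 696 and 339 on Yaa (log2 change -2.87, SE 0.62, adjusted p = 0.031). Both sit side by side on chromosome 3R with CG9458 and CG9459, from 9814161 to 9819877. FASN3, an oenocyte fatty acid synthase gene, had 158, 739.9 and 186 on -M and 1609, 3343 and 1219 on Yaa (log2 change -2.74, SE 0.64, adjusted p = 0.0417), and CG30008 had 78.3, 294 and 68.6 on -M and 612, 1187 and 574 on Yaa (log2 change -2.67, SE 0.58, adjusted p = 0.0321). The fifth, CG18609, had 13.4, 20.9 and 10.2 on -M and 85.7, 172 and 68.9 on Yaa (log2 change -2.74, SE 0.42, adjusted p = 0.00828). In each of these genes replicate 2 was the highest library of both diets. Replicate 2 was also the highest in genes that missed the threshold. Cyp4g1, which performs the last step to the hydrocarbon, had 1964, 10018 and 2195 on -M and 12433, 28318 and 12844 on Yaa (log2 change -2.24, SE 0.66, adjusted p = 0.0866), and the desaturase gene Fad2 had 244, 1237 and 292 on -M and 1608, 3754 and 1507 on Yaa (log2 change -2.23, SE 0.66, adjusted p = 0.0881).

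This group depended on how replicate 2 was handled. With the replicate number as a block 12 of the 20 genes were lower, and without both replicate 2 libraries 12 were lower. In the block fit Cyp4g1 and Fad2 had adjusted p of 0.00481 and 0.00377, and the fatty acyl-CoA reductase genes CG17562, CG17560 and CG10097 had 0.00277, 0.00786 and 0.0228. With no block, leaving out 1 library ended the calls of CG16904, eloF, FASN3 and CG30008 when that library was Gcn2 -M replicate 1 (adjusted p = 0.136 for CG30008 and 0.134 for eloF), Gcn2 -M replicate 3 (0.121 and 0.11), Gcn2 Yaa replicate 1 (0.0799 and 0.0766) or Gcn2 Yaa replicate 3 (0.0681 and 0.0693). The call of CG18609 held in all of these. Members that act outside hydrocarbon synthesis, such as Baldspot, bond and ELOVL, stood between 0.16 and 0.33 and did not pass the threshold with all libraries, although without Gcn2 Yaa replicate 2 ELOVL was higher (adjusted p = 0.0302). The high values of the replicate 2 libraries coincide with their ovary transcripts, and the part of tissue content in this result was not tested. In wDah flies 1 of the 20 genes was higher and none lower on -M, against 8.83% and 3.29% of all features. The interaction passed for CG18609 alone, by -2.01 (SE 0.51, adjusted p = 0.0396), and for eloF it was -2.40 (SE 0.75, adjusted p = 0.0871).

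**Figure D3:**
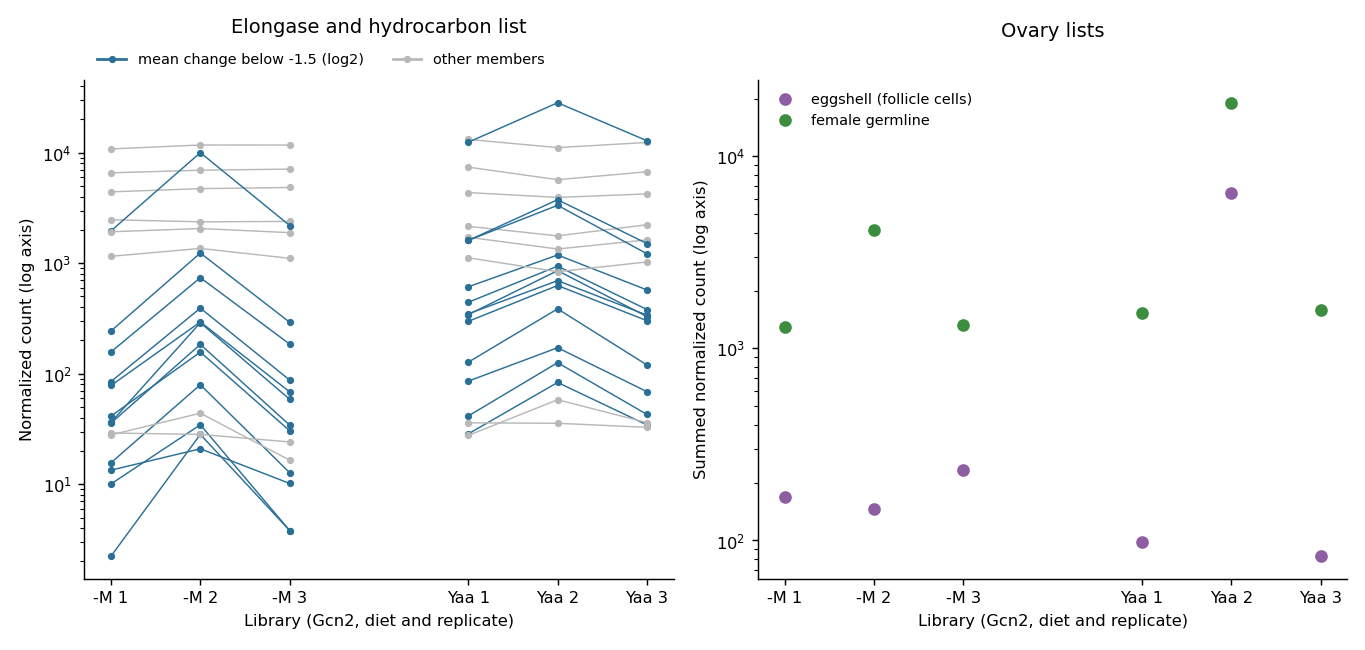
Left, normalized counts (log axis) of the 20 genes of the elongase and hydrocarbon list in each Gcn2 -M and Gcn2 Yaa library, joined by lines within a diet (blue, mean log2 change below -1.5; grey, other members). Right, summed normalized counts of 18 eggshell and 16 germline genes in the same libraries; replicate 2 holds the highest germline sum on both diets, 4116 on -M and 19030.5 on Yaa.

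Genes of sugar use rose by smaller amounts. Among all features, beside which the counts of lists here stand, 8.53% were higher and 2.33% lower. Scaled to the same total, 646 of 11182 features were higher and 1072 lower. Of 13 glycolysis genes 6 were higher and none lower, with a median log2 change of 0.30 that became 0.13, with 3 genes higher, after scaling to the same total. Hex-C, a hexokinase gene, stood apart with 4131, 3824 and 3618 normalized counts on -M and 1326, 1476 and 1329 on Yaa (log2 change 1.49, SE 0.077, adjusted p = 8.94e-05). In wDah flies it averaged 1296 ± 47.3 on -M and 1389.6 ± 34.0 on Yaa, and the difference between genotypes was 1.58 (SE 0.087, adjusted p = 3.55e-06). PyK, the pyruvate kinase gene, had a log2 change of 0.42 (SE 0.060, adjusted p = 0.00609). Trehalose, the blood sugar of flies, and glycogen are handled by 12 listed genes, of which 8 were higher. After scaling to the same total 4 of them were higher, and their median log2 change went from 0.36 to 0.20. Tps1, which makes trehalose, had 39478, 38627 and 36469.7 on -M and 15502, 15374 and 15936 on Yaa (log2 change 1.29, SE 0.058, adjusted p = 5.37e-05). The gluconeogenesis gene fbp had 5586, 5130.2 and 4513 on -M and 2013, 2009 and 2236 on Yaa (log2 change 1.28, SE 0.094, adjusted p = 3.06e-04), and Pepck1 had 19936, 22672 and 17198 on -M and 5401, 4982 and 5354 on Yaa (log2 change 1.92, SE 0.11, adjusted p = 9.95e-05). The table gives the same values for Pepck1 and the overlapping gene CG45087, so their reads cannot be separated. Idh, an isocitrate dehydrogenase gene and the strongest of 6 TCA cycle genes called of 19, had 26719.9, 24646 and 23399 on -M and 9737, 9901 and 9600.4 on Yaa (log2 change 1.35, SE 0.066, adjusted p = 6.99e-05). After scaling to the same total 3 TCA cycle genes were higher, and the median of that list went from 0.24 to 0.076. Nuclear genes of oxidative phosphorylation were higher for 14 of 62 with none lower (18 higher and 1 lower without both replicate 2 libraries), and 58 of the 62 log2 changes were positive, with a median of 0.24. The deposited scaling mattered here. After scaling to the same total 4 of the 62 were higher, near the share of all features, and 1 was lower, with a median of 0.073. In wDah flies 18 of the 62 were higher and none lower, with a median of 0.21. None of the 12 mitochondrially encoded genes was called by limma in the mutants, and 2 were lower at an unadjusted p under 0.05.

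Most amylase and maltase genes were higher on -M, and a minority of gut protease genes. Shares of all features, beside which the counts of this paragraph stand, were 8.53% higher and 2.33% lower. Of 13 amylase and maltase genes 9 were called, all higher, with a median log2 change of 0.99, and their summed level was 208949, 192260 and 211693 in the Gcn2 -M libraries, against 108589, 85078 and 97681 in the Gcn2 Yaa libraries. The alpha-glucosidase gene tobi, an insulin target in the fat body, had 31549, 29974 and 31812 normalized counts on -M and 6490.4, 6948 and 5325 on Yaa (log2 change 2.32, SE 0.10, adjusted p = 5.34e-05). Mal-A8 had 1616, 1626 and 1310.3 on -M and 319.9, 479 and 309.9 on Yaa (log2 change 2.06, SE 0.19, adjusted p = 7.62e-04), and the neighbours Mal-B1 and Mal-B2 had log2 changes of 1.46 and 1.35. Of 25 gut serine protease genes 6 were higher and none lower. Their median log2 change was -0.021, and -0.056 to 0.41 in the single -M libraries. Without both replicate 2 libraries 8 were higher and the median of the members then tested was 0.38. Jon25Bi and Jon25Bii, adjacent on chromosome 2L, led with 6651, 8054 and 6337 on -M and 777, 819 and 783 on Yaa (log2 change 3.14, SE 0.10, adjusted p = 2.22e-05) and with 1813, 2193 and 1936 on -M and 364, 359.6 and 317 on Yaa (log2 change 2.51, SE 0.10, adjusted p = 3.34e-05). The trypsin gene alphaTry, another gut marker, had 39493, 32643 and 37517 on -M and 38789.6, 36922 and 34542 on Yaa, with overlapping groups. The share of gut tissue in each library was not tested. Among immune genes, the 3 called of 14 (5 with the replicate number as a block), all higher, encode peptidoglycan recognition proteins and no antimicrobial peptide. PGRP-SD had 678, 635 and 470.2 on -M and 186, 149 and 164 on Yaa (log2 change 1.82, SE 0.16, adjusted p = 7.62e-04), and PGRP-SC2 had a log2 change of 1.55 (SE 0.18, adjusted p = 0.00255).

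Genes of protein synthesis were lower or did not pass the threshold. For comparison, 8.53% of all features were higher and 2.33% lower. Scaling to the same total made 646 of 11182 features higher and 1072 lower. Of 85 cytoplasmic ribosomal protein genes 50 were lower and none higher, and all 85 log2 changes were below 0, with a median of -0.28 and -0.32 to -0.24 in the single -M libraries. With the replicate number as a block 29 were lower, without both replicate 2 libraries 45, and after scaling to the same total 76. The largest decrease among those called was in RpL41, with 8067, 8208 and 8084 normalized counts on -M and 12741, 14734 and 14710.5 on Yaa (log2 change -0.79, SE 0.072, adjusted p = 8.16e-04). RpS12 had 5741, 5742 and 5329 on -M and 8192, 9149 and 8814 on Yaa (log2 change -0.64, SE 0.066, adjusted p = 0.00143), and RpS20 had 7135, 6909 and 6918 on -M and 10062, 10295 and 10473 on Yaa (log2 change -0.56, SE 0.051, adjusted p = 8.16e-04). In wDah flies none of the 85 was called and the median was -0.061. The interaction was more negative in the mutants for 27 of them and more positive for none. The 73 mitochondrial ribosomal protein genes had no call in limma, and 1 was higher and 2 lower at an unadjusted p under 0.05. Of 44 translation factors 3 were lower and none higher (1 lower with the replicate number as a block, 6 lower after scaling to the same total, and 3 higher and 3 lower without both replicate 2 libraries), led by eIF6, which keeps ribosomal subunits apart. It had 567, 539 and 524 on -M and 1116, 1074 and 1274 on Yaa (log2 change -1.08, SE 0.087, adjusted p = 4.76e-04). None of the 33 aminoacyl-tRNA synthetase genes was called in the mutants by limma (1 lower at an unadjusted p under 0.05), with log2 changes between -0.39 and 0.16. In wDah flies 14 were higher, against 8.83% of all features, and the interaction was more negative in the mutants for 8, against 2.71%. AsnRS, for example, had 1319, 1356 and 1215 on -M and 1169, 1379 and 1238 on Yaa in the mutants and averaged 3355 ± 132 on -M and 1381 ± 69.0 on Yaa in wDah flies, a difference of -1.25 (SE 0.10, adjusted p = 2.84e-05). None of the 32 proteasome genes was called by limma and 9 were higher at an unadjusted p under 0.05. Without both replicate 2 libraries, however, 15 were called higher, against 1347 of 10959 among all features. All 23 ribosome biogenesis genes had log2 changes below 0 (median -0.32), but NHP2 alone was called. With the block 2 were lower and without both replicate 2 libraries 7 were. The call of NHP2 was lost without Gcn2 -M replicate 2 or 3 (adjusted p = 0.0646 and 0.0648) or Gcn2 Yaa replicate 3 (0.0672).

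**Figure D4:**
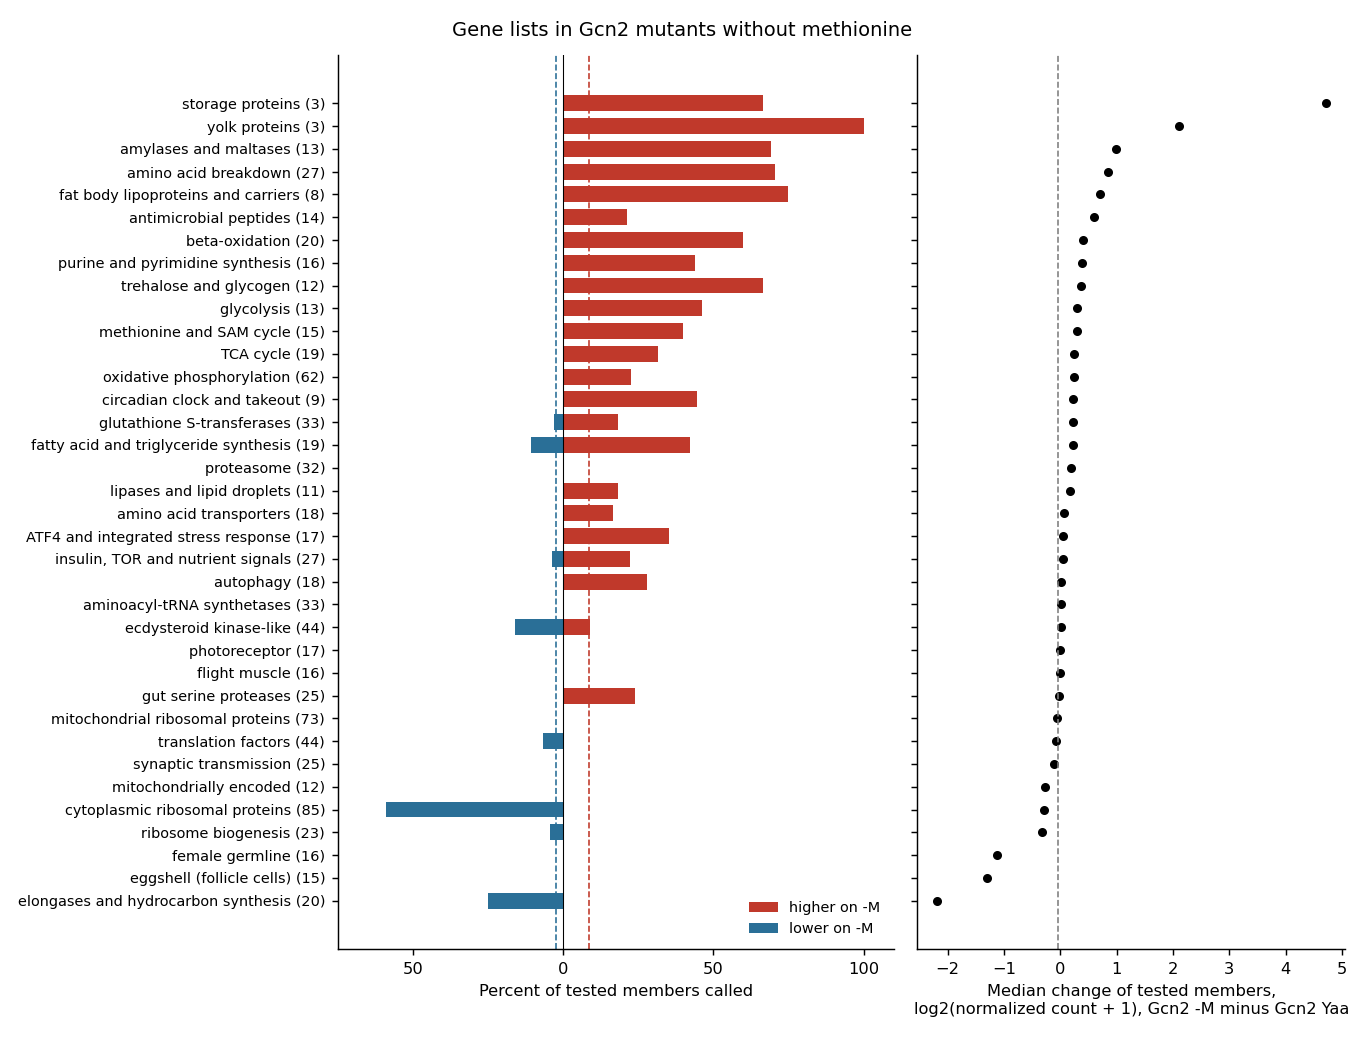
Left, percent of the tested members of each gene list (number tested in brackets) that were called higher (red) or lower (blue) in Gcn2 -M than in Gcn2 Yaa libraries, with dashed lines at the shares of all features, 8.53% higher and 2.33% lower. Right, median log2 change of the list, with a dashed line at the median of all features. All 3 yolk protein genes were called higher, and 50 of 85 cytoplasmic ribosomal protein genes lower.

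Hormone and nutrient signals changed in a few genes. The counts of lists below stand against 8.53% higher and 2.33% lower among all features. After scaling to the same total 646 of 11182 features were higher and 1072 lower. Without both replicate 2 libraries 1347 of 10959 were higher and 801 lower. Of 27 listed genes 6 were higher and 1 lower, and the median was 0.049 before and -0.12 after scaling to the same total. Scaled in that way 5 were higher and 5 lower, and without both replicate 2 libraries 7 were higher and 7 lower. Gbp2, a growth-promoting peptide of the fat body, had 8913, 7997 and 8422 normalized counts on -M and 3822, 3339 and 3762 on Yaa (log2 change 1.21, SE 0.076, adjusted p = 1.71e-04), and CCHa2, a peptide that reports nutrients to the brain, had 3452, 2549 and 3198 on -M and 1611, 1524 and 1708 on Yaa (log2 change 0.91, SE 0.12, adjusted p = 0.00399). InR, the insulin receptor gene, was lower, with 779, 868 and 925 on -M and 1436, 1197 and 1148 on Yaa (log2 change -0.55, SE 0.11, adjusted p = 0.0234), and its difference between genotypes was -0.68 (SE 0.12, adjusted p = 0.00518). With the replicate number as a block 5 genes of the list were higher and none lower. The insulin-like peptide gene Ilp5 had 111, 89.0 and 89.0 on -M and 51.6, 43.4 and 54.6 on Yaa (log2 change 0.93, SE 0.18, adjusted p = 0.0207), a call lost without Gcn2 -M replicate 1 (adjusted p = 0.101), replicate 2 (0.0721) or replicate 3 (0.0768) and without Gcn2 Yaa replicate 1 (0.0637) or replicate 3 (0.0504). Ilp2 and Ilp3 were not called. Of 18 amino acid transporters 3 were higher (1 with the replicate number as a block), led by path, with 10833, 11806 and 11375 on -M and 7881, 7863 and 6943 on Yaa (log2 change 0.59, SE 0.073, adjusted p = 0.0031). The clock genes per, tim and cry were higher, by 0.92, 0.77 and 0.62, and tim was above its wDah change by 0.96 (SE 0.15, adjusted p = 0.00256). With all 24 libraries in 1 limma fit the call of tim in the mutants was lost (adjusted p = 0.176). The time of day at which flies were frozen was not given in the sources used here. Of 18 autophagy genes 5 were higher and none lower, among them Atg2, with a log2 change of 0.57 (SE 0.062, adjusted p = 0.00178), but after scaling to the same total 3 were higher and 4 lower. Of 33 glutathione S-transferase genes 6 were higher and 1 lower, the latter near the share of all features, and after scaling 3 were higher and 2 lower. None of the 25 synaptic, 17 photoreceptor or 16 flight muscle genes was called by limma, and at an unadjusted p under 0.05 only 3 flight muscle genes passed. With the replicate number as a block 1 flight muscle gene was higher. Without both replicate 2 libraries 9 synaptic genes were lower.

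Several of the 12 largest increases are in genes with little annotation. CG31775 and CG42586 (chromosome 2L, 14737090 to 14737769 and 14741161 to 14741840) share all their values, 373, 473 and 343 normalized counts on -M and 6.86, 9.09 and 14.2 on Yaa (log2 change 5.21, SE 0.28, adjusted p = 9.90e-05), and so count as 1 measurement. CG34166 lies next to them (14743193 to 14743879) and had 8815, 9335 and 7515 on -M and 516, 588 and 459.7 on Yaa (log2 change 4.04, SE 0.12, adjusted p = 2.22e-05). The change was larger in the mutants for all 3, by 2.35 for the pair and by 1.82 for CG34166, while wDah flies had log2 changes of 2.84 and 2.21. CG11425 had 1304, 1275 and 1069 on -M and 51.6, 46.0 and 37.0 on Yaa (log2 change 4.74, SE 0.15, adjusted p = 2.24e-05). The acyl-CoA synthetase gene hll had 132, 187 and 268 on -M and 10.1, 13.9 and 4.20 on Yaa (log2 change 4.31, SE 0.46, adjusted p = 0.00156), and Obp99a, an odorant-binding protein gene, had 2040.3, 1686 and 1889 on -M and 114, 266 and 173 on Yaa (log2 change 3.42, SE 0.28, adjusted p = 5.38e-04).

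A second group of decreases is described together because the mutants expressed these genes strongly without arginine. It was drawn from the named genes with those levels known. How many of the 260 lower features share this trait was not counted, and wDah libraries from the diet without arginine were not used. CG33468 had 34.7, 25.1 and 28.0 normalized counts on -M and 243, 172 and 198 on Yaa (log2 change -2.76, SE 0.20, adjusted p = 3.18e-04). CG11893 had 179, 256 and 219.9 on -M and 1856, 1131 and 1886 on Yaa (log2 change -2.87, SE 0.23, adjusted p = 4.62e-04), and CG32195 had 271, 323 and 306 on -M and 1430.2, 1145 and 1304 on Yaa (log2 change -2.10, SE 0.11, adjusted p = 9.70e-05). Both belong to the ecdysteroid kinase-like family, of which 4 were higher and 7 lower among 44 tested, against 8.53% and 2.33% of all features. The 4 higher are thus near the share of all features. This list was added after values were seen. Arc2, a gene derived from a retrotransposon capsid, had 124, 108 and 87.7 on -M and 354, 314 and 374 on Yaa (log2 change -1.70, SE 0.16, adjusted p = 8.00e-04), and Rev7, a DNA repair gene, had 81.6, 95.2 and 76.3 on -M and 286, 228 and 338 on Yaa (log2 change -1.73, SE 0.18, adjusted p = 0.00139). CG42362 and CG42363 share their exons and all values, 157, 177 and 136 on -M and 489.8, 454 and 551 on Yaa (log2 change -1.67, SE 0.13, adjusted p = 4.55e-04). The mitochondrial cytochrome P450 gene Cyp12c1 had 2244, 2329 and 1809 on -M and 6969, 5177 and 7943 on Yaa (log2 change -1.64, SE 0.17, adjusted p = 0.00154). In each of these the 3 Yaa libraries lay above the 3 -M libraries, as the rule for naming the largest changes required. Replicate 2 was the lowest of the Yaa libraries in each.

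Levels in both genotypes are given from the joint table for CG33468 and Cyp12c1 only, and the difference between genotypes on Yaa was not tested. CG33468 averaged 27.1 ± 4.56 in Gcn2 -M and 189.9 ± 33.4 in Gcn2 Yaa libraries, and 10.1 ± 5.46 in wDah -M and 11.6 ± 3.38 in wDah Yaa libraries (SD, n = 3 each). Cyp12c1 averaged 1961 ± 253 in Gcn2 -M and 6200.0 ± 1292 in Gcn2 Yaa libraries, and 986 ± 11.8 in wDah -M and 814 ± 51.2 in wDah Yaa libraries. In the mutants without arginine (-R), the level was 2325 ± 348 for CG33468, 18885 ± 2459 for CG11893, 24361 ± 3523 for CG32195, 3756 ± 179.6 for Arc2, 4358 ± 537 for Rev7, 6838 ± 2785 for CG42362 and 60818 ± 5975 for Cyp12c1 (SD, n = 3 each). It was 9852 ± 1388 for eIF6 and 48078 ± 1548 for CG31694, 2 further genes that were lower on -M in the mutants. In wDah flies eIF6 had a log2 change of 0.33 (SE 0.070, adjusted p = 0.0113) and CG31694 one of -0.003 (SE 0.040, adjusted p = 0.976). The differences between genotypes on -M were -2.74 (SE 0.26, adjusted p = 8.31e-05) for CG11893, -2.02 (SE 0.16, adjusted p = 2.79e-05) for CG32195, -1.42 (SE 0.10, adjusted p = 1.38e-05) for eIF6 and -0.93 (SE 0.057, adjusted p = 5.83e-06) for CG31694. The interaction of the other 5 genes was also negative, and its values are given in the closing section.

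Of the 10 genes with the smallest adjusted p of the interaction, 9 were more positive in the mutants and CG31694 was more negative. MsrA, Tsf1, Hex-C and CG3902 are described above. CG2736, which encodes a scavenger receptor of the CD36 family, had 10657, 10360.4 and 9754 normalized counts on -M and 3665, 3401 and 3921 on Yaa in the mutants (log2 change 1.49, SE 0.072, adjusted p = 6.99e-05), and averaged 3449 ± 139 on -M and 3611 ± 69.7 on Yaa in wDah flies, a difference between genotypes of 1.55 (SE 0.081, adjusted p = 2.59e-06). Sodh-1, a sorbitol dehydrogenase gene, had 7933, 7158 and 6829 on -M and 941, 1088 and 808 on Yaa in the mutants (log2 change 2.96, SE 0.12, adjusted p = 3.35e-05), and averaged 790.3 ± 74.2 on -M and 566 ± 36.1 on Yaa in wDah flies, a difference of 2.47 (SE 0.15, adjusted p = 5.83e-06). For Aldh7A1, an aldehyde dehydrogenase gene, the values in the mutants were 3499, 3465 and 3097 on -M and 767, 798 and 728 on Yaa, and the difference was 1.62 (SE 0.092, adjusted p = 3.61e-06). CG3699 and CG18003 differed by 1.97 (SE 0.12, adjusted p = 5.83e-06) and 1.77 (SE 0.12, adjusted p = 1.01e-05). For CG2736, Hex-C and CG18003 the log2 change in wDah flies lay between -0.10 and -0.057 with adjusted p of 0.513, 0.33 and 0.742, while all 3 were called in the mutants.

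**Figure D5:**
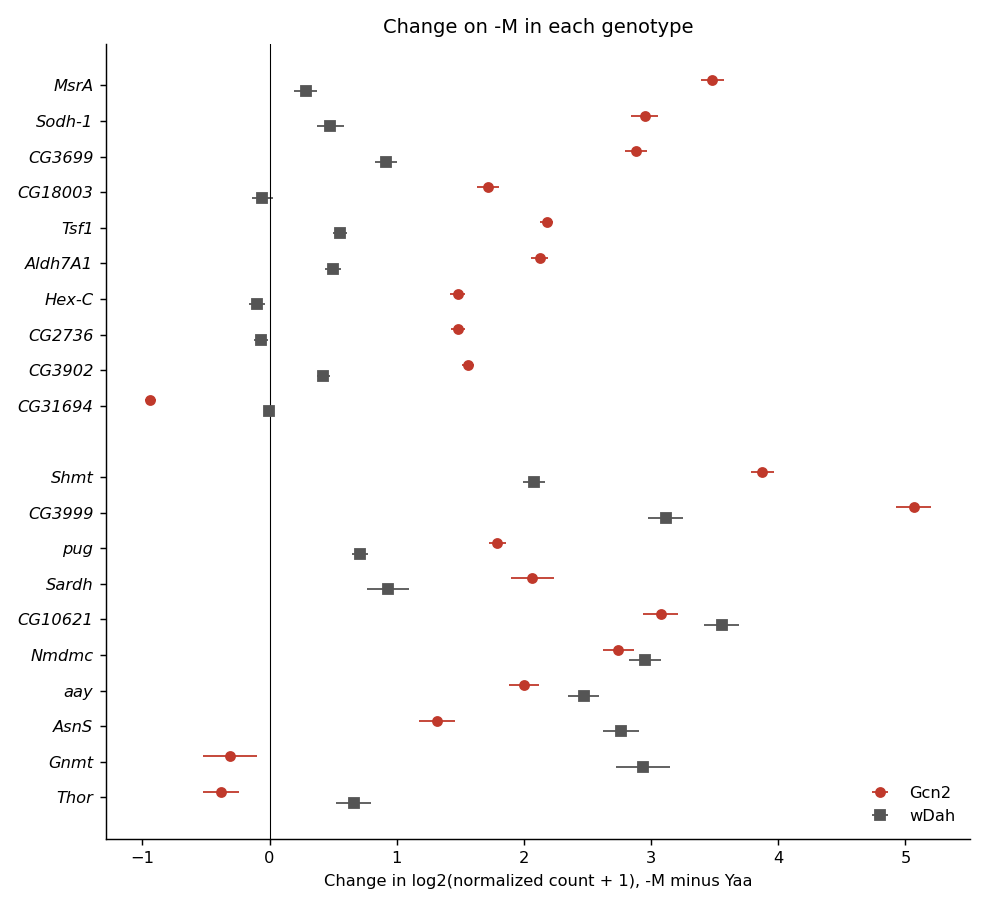
Change in log2(normalized count + 1) between -M and Yaa in Gcn2 mutants (red circles) and in wDah flies (grey squares) for the 10 genes with the smallest adjusted p of the interaction (above the gap) and for 10 genes of glycine, methionine and ATF4 target lists (below it), with standard errors from the fit of 12 libraries as bars. MsrA and Sodh-1 lie far apart, CG10621 and Nmdmc lie close, and AsnS, Gnmt and Thor are lower in the mutants.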

How the data were processed

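The libraries were polyA-selected and sequenced on a HiSeq 2500 as single-end reads. The authors estimated read numbers with kallisto 0.46.2 on the BDGP6.32 transcriptome and normalized them with DESeq2 1.24.0 in R 3.6.3. The deposited signal values are these normalized counts per gene, not raw counts; strand use was not stated. Columns with the authors' fold changes and p-values were not used. The mutant comparison used the table of its 6 libraries, and the comparison between genotypes 12 libraries of the table normalized over all 24; the tables were normalized separately.

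Features with a mean of at least 10 were tested with limma 3.58.1 (moderated, with a mean-variance trend) in R 4.3.3 on log2(value + 1), with Benjamini-Hochberg adjustment. The interaction was (Gcn2 -M minus Gcn2 Yaa) minus (wDah -M minus wDah Yaa). From the spacing of low values, of which 84.3% to 86.1% were whole within 0.05, each library of the mutant comparison held an estimated 21.0 M to 28.4 M reads. Since no sample label names separate cultures, p-values measure the spread between these samples. With 3 against 3 a single exact test could not go below 0.1.

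Members, gene lists and tests were chosen with earlier results of these data known. Named genes were, first, the 12 largest increases and decreases among called genes with a mean of at least 100. For these, all 3 -M libraries had to lie on 1 side of all 3 Yaa libraries. Up to 4 called members of each of 37 lists were added, with all members of the methionine, ATF4, storage, yolk and elongase lists. The genes with the 10 smallest interaction p-values were added as well. Further genes were named after their values were seen. The main fits treated libraries as unpaired, and a replicate block was fitted as an alternative. Deviations from the group means of same-numbered libraries correlated in all 3 pairs (0.25, 0.46 and 0.23). Replicates 1 and 3 correlated across numbers too (0.23 and 0.22), so the numbers are not established as pairs. The alternatives were another pseudocount (0.1 or 10), no filter or one at 50, scaling to the same total, all 24 libraries in 1 fit, a replicate block, array weights, an eggshell covariate and leaving out libraries. Gene positions come from the BDGP6.54 annotation. No sequences were used here.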

Additional observations from a re-analysis of the deposited data

Results flagged for a closer look

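The difference between genotypes, by the interaction test with an adjusted p under 0.05, is given here for 46 genes. Further genes named in the text also passed this test and are not listed. All values here are the log2 change of Gcn2 mutants minus that of wDah flies.

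The difference was positive, a more positive change in the mutants, in 27 of them. For enzymes of glycine, folate and purine metabolism it was 1.95 for CG3999, 1.80 for Shmt, 1.14 for Sardh, 1.08 for pug and 0.48 for CG6415, and 1.10 for CG11089, 1.25 for Gart, 0.94 for AdSL and 0.64 for Prat2. For the yolk protein and transferrin genes it was 1.57 for Yp2, 1.29 for Yp3, 1.28 for Yp1 and 1.62 for Tsf1. Other enzymes were MsrA with 3.20, Sodh-1 with 2.47, Aldh7A1 with 1.62, Hex-C with 1.58, CG3902 with 1.13, CG3699 with 1.97, CG18003 with 1.77 and arg with 2.01. The remaining positive values were 2.59 for CG11425, 2.35 for CG31775 and, from the same values, 2.35 for CG42586, 1.82 for CG34166, 1.55 for CG2736 and 0.96 for tim.

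The difference was negative in the other 19. In the methionine and ATF4 target lists it was -3.25 for Gnmt, -1.44 for AsnS, -1.04 for Thor, -0.88 for Cbs and -0.39 for scyl. Among genes with high levels in the mutants without arginine it was -2.74 for CG11893, -2.48 for CG33468, -2.02 for CG32195, -2.02 for Arc2, -1.92 for Cyp12c1, -1.73 for CG42362 and, from the same values, -1.73 for CG42363, -1.64 for Rev7 and -0.93 for CG31694. The elongase gene CG18609 had -2.01. In genes of translation it was -1.42 for eIF6 and -1.25 for AsnRS, and it was -0.68 for InR and -0.73 for hgo. Groups of 3 libraries were too small for a test of single outlying libraries.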

How the results depend on the processing

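With a replicate block in the mutant comparison 996 features were called, 797 higher and 199 lower, of which 915 were among the 1211 called without it, and the block called 621 in the interaction, 391 more positive and 230 more negative. Block values that changed the call of a gene described in the text, or moved a list count by over 1.5 times, stand beside it, and smaller shifts of list counts are not listed. The number of calls in the mutants was more than 1.5 times 1211 in 4 alternatives with other fits or without both replicate 2 libraries: 2085 with all 24 libraries in 1 fit, 2804 with array weights, 2597 with the mean log2 level of the tested eggshell genes as a covariate and 2148 without both replicate 2 libraries. Leaving out 1 library gave 620 to 2492. The interaction, with 761 calls, gave 1441 with array weights and 512 to 1262 when 1 library was left out, the highest without Gcn2 Yaa replicate 2 and the lowest without wDah Yaa replicate 2. Scaling to the same total called 1718 features in the mutants, mostly lower (1072), and 847 in the interaction. Pseudocounts of 0.1 and 10, no filter and a filter at 50 gave 1129 to 1232 calls in the mutants and 732 to 803 in the interaction. Of 146 genes named by the rule none changed direction past the threshold in these alternatives, 118 to 138 kept their side of the threshold when 1 library was left out, and 26 lost their call without Gcn2 -M replicate 3, the most for any library. Values near the minimum of 10 normalized counts, and genes with high spread such as the hydrocarbon genes, set the limit of what 3 libraries a group can show.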

Other observations

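A few further genes, all chosen after their values were seen, belong to no list. The gene phu had 684, 1084 and 724 normalized counts on -M and 81.1, 104 and 113 on Yaa (log2 change 3.03, SE 0.21, adjusted p = 2.66e-04). Had1, a predicted hydroxyacyl-CoA dehydrogenase gene, had 8149.8, 6949 and 7561 on -M and 1179.9, 1767 and 1464 on Yaa (log2 change 2.38, SE 0.15, adjusted p = 1.68e-04), and its exons overlap CG3679 and an antisense gene. The chaperone gene Hsp83 was lower, with 8207, 10878 and 7310.2 on -M and 15090.2, 25323 and 15208 on Yaa (log2 change -1.05, SE 0.24, adjusted p = 0.036).

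Among the called features were 27 copies of transposable elements, 16 higher and 11 lower. The number of copies tested was not counted, so their share cannot be set beside that of all features, 8.53% higher and 2.33% lower. The copy FBti0018869 was listed at 0, 0 and 0 in the Gcn2 -M libraries, against 79.3, 61.7 and 52.1 in the Gcn2 Yaa libraries, so all 3 -M libraries were at 0 and no Yaa library was. Copies of 1 family share sequence, and reads of 1 copy cannot be told apart from those of a near-identical one.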
